A study of Homo sapiens with 12 samples.

Results

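The 9 genes described here serve MHC class I antigen presentation: HLA-B, B2M, NLRC5, ERAP1, ERAP2, PSMB10, PSME1, PSME2 and TAPBPL. They were taken by name from a deposited table of 38478 genes, and all 9 were among the 11241 genes that were tested because their mean level reached 0.5 RPKM, a count of reads scaled to the length of the gene and to the depth of the library. The table holds poly(A) RNA of OPM-1, an established human multiple myeloma cell line, after 48 h of treatment. The 4 conditions were the solvent DMSO, LEN (lenalidomide at 0.1 μM), RUNXi (the compound AI-10-104 at 1 μM) and LEN+RUNXi, both at these doses. Each condition had 3 biological replicates, 12 samples in all, and every condition was the same single line with its native genes. LEN directs the ligase substrate receptor cereblon to IKZF1 and IKZF3 for degradation, and AI-10-104 blocks the binding of RUNX proteins to their partner CBFβ. In bulk RNA, fewer cells of a type and less RNA per cell cannot be told apart.

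MHC class I molecules show peptides from inside the cell to CD8 T cells. The proteasome cuts proteins into peptides, aminopeptidases of the endoplasmic reticulum trim them, and chaperones exchange them on a heavy chain (HLA-B and HLA-C encode such chains) until a tightly held peptide lets the complex with β2-microglobulin leave for the surface. Interferons raise many of these genes through IRF and STAT factors at their promoters, and NLRC5 is the transactivator of the class I genes.

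Among these genes HLA-B changed most with the drugs. It rose with LEN+RUNXi to 1.43-fold of DMSO (log2 fold change 0.52 ± 0.04, SE), and it was also higher with LEN+RUNXi than with either agent alone. TAPBPL, which encodes the peptide editor TAPBPR, and PSMB10, which encodes an inducible catalytic subunit of the immunoproteasome, rose with the combination by 1.24-fold and 1.12-fold. None of the other 6 genes passed the test against DMSO in any condition, B2M and NLRC5 among them. In the text "rose", "fell" and "passed" mean an adjusted p of at most 0.05 over all 11241 genes in limma, and "called" adds that the log2 fold change was 0.32 or more in size.

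**Figure D1:**
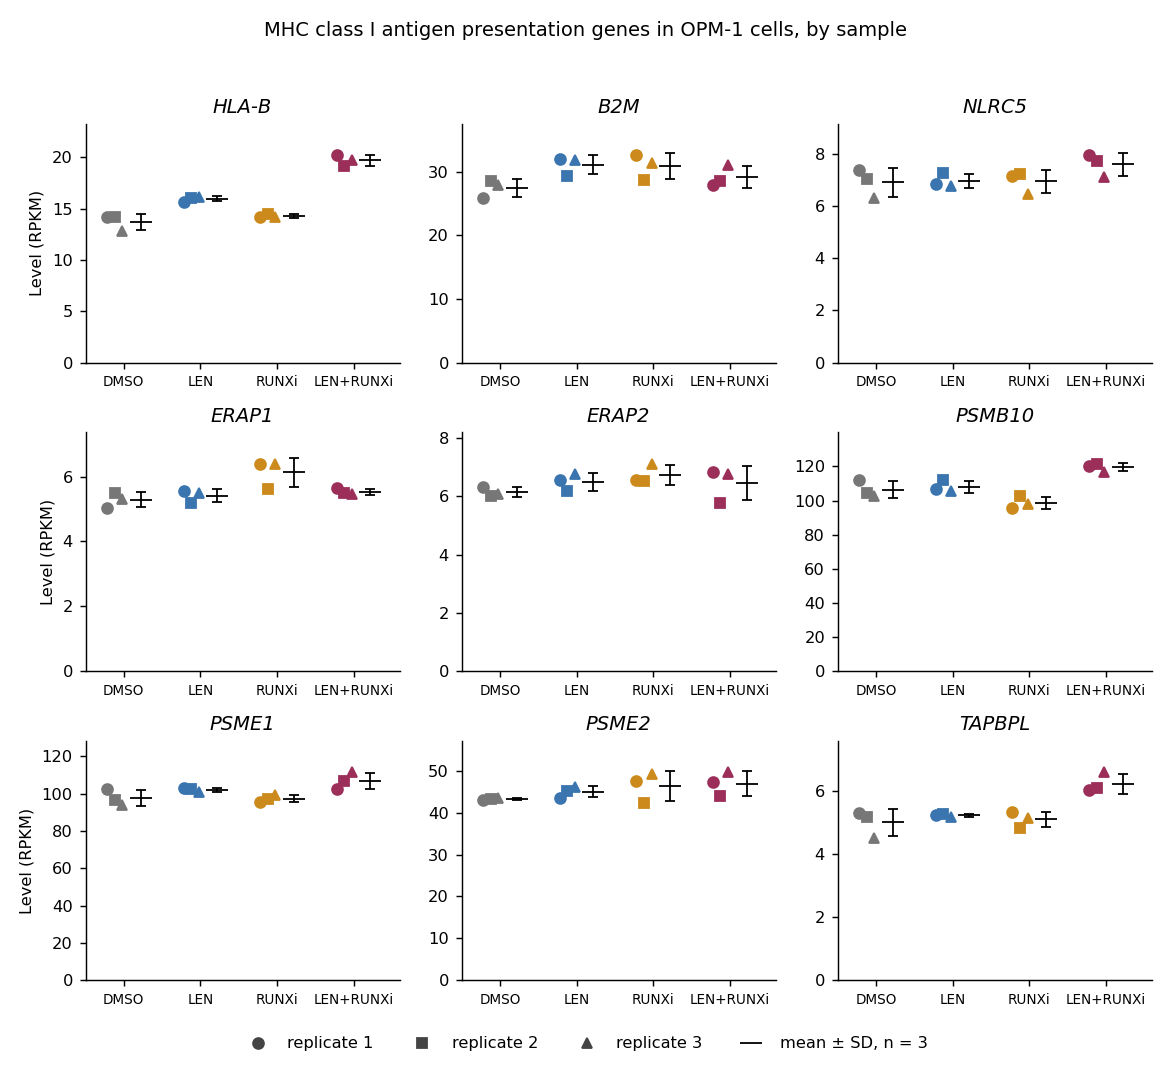
Level in RPKM (vertical axes, from 0) of each of the 9 genes in each sample, by condition (horizontal axes), with the mean ± SD of the 3 replicates drawn in black beside the points. The LEN+RUNXi samples of HLA-B sit between 19.2 and 20.2 RPKM, above the other 9 samples, while B2M and ERAP2 overlap between most conditions.

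Each sample had between 16352548 and 31386210 reads on genes. The LEN+RUNXi samples were among the shallowest, with 16352548 to 20419807 reads, and the part of depth in the differences was not tested beyond thinning. With the reads of every sample thinned to the smallest library, an alternative chosen after seeing the data, the LEN+RUNXi change was 0.52 for HLA-B, 0.34 for TAPBPL and 0.18 for PSMB10 on the log2 scale, and all passed. All 8 plasma cell genes checked were present, at means of 22.9 to 523 RPKM, and their summed level was 1294 to 1359 RPKM in DMSO, 1239 to 1280 in LEN, 1484 to 1539 in RUNXi and 1301 to 1378 in LEN+RUNXi. Of 13 markers of T cells, monocytes, B cells, epithelium, fibroblasts and endothelium, none reached 0.5 RPKM; CD3D, EPCAM, COL1A2, VWF and CDH5 had no read, and the summed level was 0.378 to 0.904 RPKM in DMSO, 0.263 to 0.543 in LEN, 0.539 to 0.706 in RUNXi and 0.293 to 0.689 in LEN+RUNXi. RUNXi replicate 2 was singled out by what leaving it out did to the counts of genes. Without it the genes called for RUNXi against DMSO went from 199 to 443. The genes whose response to the combination differed from the sum of the single agents went from 0 to 540. Its 29512562 reads on genes were within the range of the other samples. It was picked after these counts were seen, so a pass without it is no independent support. Results that turn on this sample are given with and without it.

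The 250 bases before the RefSeq start site are shown for the 3 genes that rose with LEN+RUNXi and for B2M, which did not pass. They are from RefSeq on GRCh38.p14, are written in the direction of the gene, and carry in capitals the letters AANNGAAA on either strand, the core that IRF factors bind. TAPBPL has another start site in the table, whose window of 300 bases (chr12:6451399-6451698) holds no such letters.
HLA-B, chr6:31357180-31357429, minus strand: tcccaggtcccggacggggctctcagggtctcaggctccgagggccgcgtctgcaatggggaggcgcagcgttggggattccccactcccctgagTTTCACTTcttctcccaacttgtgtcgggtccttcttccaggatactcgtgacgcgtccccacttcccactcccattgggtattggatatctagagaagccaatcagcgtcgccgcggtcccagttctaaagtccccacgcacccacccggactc
PSMB10, chr16:67936851-67937100, minus strand: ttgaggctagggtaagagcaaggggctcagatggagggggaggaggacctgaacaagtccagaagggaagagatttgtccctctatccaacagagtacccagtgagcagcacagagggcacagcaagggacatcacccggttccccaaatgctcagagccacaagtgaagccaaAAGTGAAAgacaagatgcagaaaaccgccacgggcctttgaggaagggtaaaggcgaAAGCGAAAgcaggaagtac
TAPBPL, chr12:6451792-6452041, plus strand: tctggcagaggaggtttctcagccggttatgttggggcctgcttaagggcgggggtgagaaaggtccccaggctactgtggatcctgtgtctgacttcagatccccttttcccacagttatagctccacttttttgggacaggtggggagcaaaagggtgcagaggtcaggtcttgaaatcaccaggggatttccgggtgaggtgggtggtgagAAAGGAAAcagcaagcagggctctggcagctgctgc
B2M, chr15:44711267-44711516, plus strand: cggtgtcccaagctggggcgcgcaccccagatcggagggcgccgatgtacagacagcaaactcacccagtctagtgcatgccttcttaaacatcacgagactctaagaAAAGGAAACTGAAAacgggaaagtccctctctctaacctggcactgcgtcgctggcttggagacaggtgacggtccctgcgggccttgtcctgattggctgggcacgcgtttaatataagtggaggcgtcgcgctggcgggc
The letters AANNGAAA lay in a window of 250 bases before to 50 after the start for all 8 genes with a window in the RefSeq table used, NLRC5 being the one without (9 of their 11 windows), against 22.8% of 35116 windows of the same length. The longer interferon-stimulated response element GAAANNGAAA, which contains the former letters, lay in 6 of the 11 windows, against 3.57% of all windows. These were windows of 6 of the 8 genes (B2M, ERAP1, ERAP2, PSMB10, PSME1 and PSME2). HLA-B and TAPBPL, the genes with the largest change in the combination, held the shorter core without these exact longer letters. Of the 6 with the longer letters PSMB10 alone passed against DMSO. Looser forms of the element were not searched, so its absence from a window is not shown. The other letters were searched on both strands and are counted over the 11 windows, with the share of all windows in brackets. The STAT element TTCNNNGAA lay in none (7.66%), and the RUNX letters TGTGGT in none (13.1%). The IKAROS letters TGGGAA lay in 4 windows of 3 genes, HLA-B, PSME2 and TAPBPL (24.0%). The cAMP response letters TGACG lay in 2, of HLA-B and B2M (24.6%). The Y box CCAAT lay in 3, of HLA-B, B2M and ERAP1 (34.6%). The NF-kappaB consensus lay in 4, of HLA-B, B2M, ERAP1 and TAPBPL (11.3%). A match of letters is a description of the window and not a bound site.

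HLA-B (chr6:31353872-31367067, minus strand, GRCh38) encodes a classical heavy chain, the part of the complex that holds the peptide. Its level was 14.2, 14.2 and 12.8 RPKM in the DMSO replicates, 15.7, 16.1 and 16.1 with LEN, 14.2, 14.5 and 14.1 with RUNXi, and 20.2, 19.2 and 19.7 with LEN+RUNXi. All LEN samples lay above all DMSO samples, the RUNXi and DMSO samples overlapped, and the LEN+RUNXi samples lay above every other sample. The log2 fold change against DMSO was 0.22 ± 0.04 with LEN (adjusted p = 0.032), 0.06 ± 0.04 with RUNXi (adjusted p = 0.47) and 0.52 ± 0.04 with LEN+RUNXi (adjusted p = 1.9e-05, limma). The combination exceeded LEN by 0.30 (adjusted p = 0.0019) and RUNXi by 0.46 (adjusted p = 0.0002). The rise with the combination passed in all 23 alternative settings, at 0.47 to 0.54 when single samples were left out. The rise with LEN did not: its adjusted p was 0.150 with only the conditions compared and 0.0507 to 0.124 without DMSO replicate 2 or 3, any LEN replicate, RUNXi replicate 1 or 3, or LEN+RUNXi replicate 3.

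B2M (chr15:44711358-44718851, plus strand) encodes β2-microglobulin, the invariant chain that pairs with every class I heavy chain. It stood at 25.9, 28.5 and 27.9 RPKM in DMSO, 32.0, 29.3 and 31.9 with LEN, 32.7, 28.6 and 31.4 with RUNXi, and 27.9, 28.6 and 31.0 with LEN+RUNXi. The samples of each single agent lay just above DMSO, while those of the combination overlapped both DMSO and the single agents. The log2 fold change was 0.18 ± 0.06 with LEN (adjusted p = 0.25), 0.17 ± 0.06 with RUNXi (adjusted p = 0.14) and 0.09 ± 0.06 with LEN+RUNXi (adjusted p = 0.43), and the 95% interval of the last ran from -0.05 to 0.22. Without RUNXi replicate 2, whose 28.6 RPKM was the lowest of its condition, the RUNXi value was 0.22 with an adjusted p of 0.034.

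The ratio of HLA-B to B2M in a sample was 0.501 ± 0.045 in DMSO, 0.514 ± 0.030 in LEN, 0.464 ± 0.036 in RUNXi and 0.677 ± 0.046 in LEN+RUNXi (SD, 3 samples each, on the deposited gene lengths). The 3 LEN+RUNXi ratios, 0.634 to 0.726, were above those of every other sample, and the ratio was 1.35-fold that of DMSO. A two-sided exact permutation test gave p = 0.1 against DMSO, LEN and RUNXi in turn, the smallest value that 3 samples against 3 allow.

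NLRC5 (chr16:56989485-57083531, plus strand), the class I transactivator, stood at 7.38, 7.04 and 6.28 RPKM in DMSO, 6.82, 7.26 and 6.74 with LEN, 7.15, 7.21 and 6.45 with RUNXi, and 7.95, 7.71 and 7.11 with LEN+RUNXi. The conditions overlapped. The log2 fold change was 0.01 with LEN, 0.01 with RUNXi and 0.14 ± 0.07 with the combination (adjusted p = 0.25), with a 95% interval of -0.01 to 0.29 for the last.

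Of the genes that cut proteins into peptides, PSMB10 (chr16:67934506-67936864, minus strand) replaces a constitutive catalytic subunit in the immunoproteasome. It measured 112, 105 and 103 RPKM in DMSO, 107, 112 and 105 with LEN, 95.8, 102 and 98.0 with RUNXi, and 120, 122 and 117 with LEN+RUNXi. Every RUNXi sample was below every DMSO sample and every LEN+RUNXi sample was above all others. The log2 fold change was 0.02 with LEN (adjusted p = 0.93), -0.11 ± 0.04 with RUNXi (adjusted p = 0.15) and 0.17 ± 0.04 with the combination (adjusted p = 0.025). The combination exceeded RUNXi by 0.28 (adjusted p = 0.0029) in all 23 alternatives, whereas its difference from LEN, 0.15, had an adjusted p of 0.064, which was 0.0405 without DMSO replicate 1 and 0.0468 without RUNXi replicate 2. The rise against DMSO was less firm. Its adjusted p was 0.0514 with median-ratio rescaling, 0.0539 with every gene above 0 tested, and 0.0831 to 0.0958 without DMSO replicate 2 or 3 or LEN+RUNXi replicate 1 or 2. The ratio of PSMB10 to PSMB7, the constitutive subunit it replaces, was 1.42 ± 0.08 in DMSO, 1.46 ± 0.06 in LEN, 1.30 ± 0.05 in RUNXi and 1.56 ± 0.06 in LEN+RUNXi (SD, on the deposited gene lengths). The exact permutation test of LEN+RUNXi against RUNXi gave the smallest possible p, 0.1.

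PSME1 and PSME2, neighbours on chromosome 14 (chr14:24136163-24138967, plus strand, and chr14:24143362-24147570, minus strand), encode the α and β subunits of PA28, the cap that opens the proteasome. PSME1 was 102, 96.3 and 94.0 RPKM in DMSO, 103, 102 and 101 with LEN, 95.4, 97.0 and 99.1 with RUNXi, and 103, 107 and 111 with LEN+RUNXi. Its LEN+RUNXi samples lay above the DMSO samples by a narrow margin, with a log2 fold change of 0.13 ± 0.04 and an adjusted p of 0.056, or 0.025 without DMSO replicate 1 and 0.036 with quantile normalization. Against RUNXi the change was 0.14 and passed (adjusted p = 0.036), but in 11 of the 23 alternatives it did not, with adjusted p from 0.0513 to 0.131 without DMSO replicate 2, LEN replicate 3, RUNXi replicate 1 or 3, or LEN+RUNXi replicate 2 or 3. PSME2 was 42.9, 43.2 and 43.6 RPKM in DMSO, 43.6, 45.1 and 46.2 with LEN, 47.6, 42.3 and 49.3 with RUNXi, and 47.3, 43.9 and 49.6 with LEN+RUNXi. It passed no comparison, and replicate 2 was the lowest of the RUNXi and of the LEN+RUNXi samples. Without RUNXi replicate 2 its RUNXi value went from 0.10 (adjusted p = 0.34) to 0.16 (adjusted p = 0.046). On the deposited gene lengths, which set its size, the ratio of PSME1 to PSME2 stayed between means of 2.10 and 2.28 in the 4 conditions.

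ERAP1 and ERAP2 (chr5:96760810-96808100, minus strand, and chr5:96875986-96919703, plus strand) encode the aminopeptidases that trim peptides in the endoplasmic reticulum. ERAP1 stood at 5.04, 5.51 and 5.31 RPKM in DMSO, 5.54, 5.17 and 5.50 with LEN, 6.37, 5.62 and 6.40 with RUNXi, and 5.63, 5.49 and 5.46 with LEN+RUNXi. Its RUNXi samples lay above all DMSO samples, replicate 2 only just, and the log2 fold change of 0.21 ± 0.06 missed the threshold (adjusted p = 0.062). It passed without RUNXi replicate 2 (0.27, adjusted p = 0.0088), and without that sample ERAP1 was also lower in LEN+RUNXi than in RUNXi (-0.21, adjusted p = 0.016, against -0.14 and 0.10 with it, and -0.18 and 0.046 with quantile normalization). ERAP2 was 6.32, 5.99 and 6.09 RPKM in DMSO, 6.55, 6.16 and 6.75 with LEN, 6.55, 6.52 and 7.11 with RUNXi, and 6.81, 5.78 and 6.76 with LEN+RUNXi. It passed no comparison in any setting, its log2 fold changes against DMSO being 0.08, 0.13 and 0.07.

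TAPBPL (chr12:6451690-6466517, plus strand) encodes TAPBPR, a relative of tapasin that exchanges peptides on class I molecules. It stood at 5.31, 5.18 and 4.50 RPKM in DMSO, 5.23, 5.27 and 5.16 with LEN, 5.31, 4.83 and 5.14 with RUNXi, and 6.01, 6.07 and 6.58 with LEN+RUNXi. The single agents overlapped DMSO, and the 3 combination samples lay above the other 9. The log2 fold change was 0.07 with LEN (adjusted p = 0.83), 0.03 with RUNXi (adjusted p = 0.82) and 0.31 ± 0.06 with LEN+RUNXi (adjusted p = 0.013), which passed in all 23 alternatives at 0.24 to 0.36. The combination exceeded RUNXi by 0.28 (adjusted p = 0.017; 0.055 without RUNXi replicate 3). Its difference from LEN, 0.25, had an adjusted p of 0.052, which was 0.0215 without DMSO replicate 3, 0.0480 without DMSO replicate 1 and 0.0453 without RUNXi replicate 2.

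**Figure D2:**
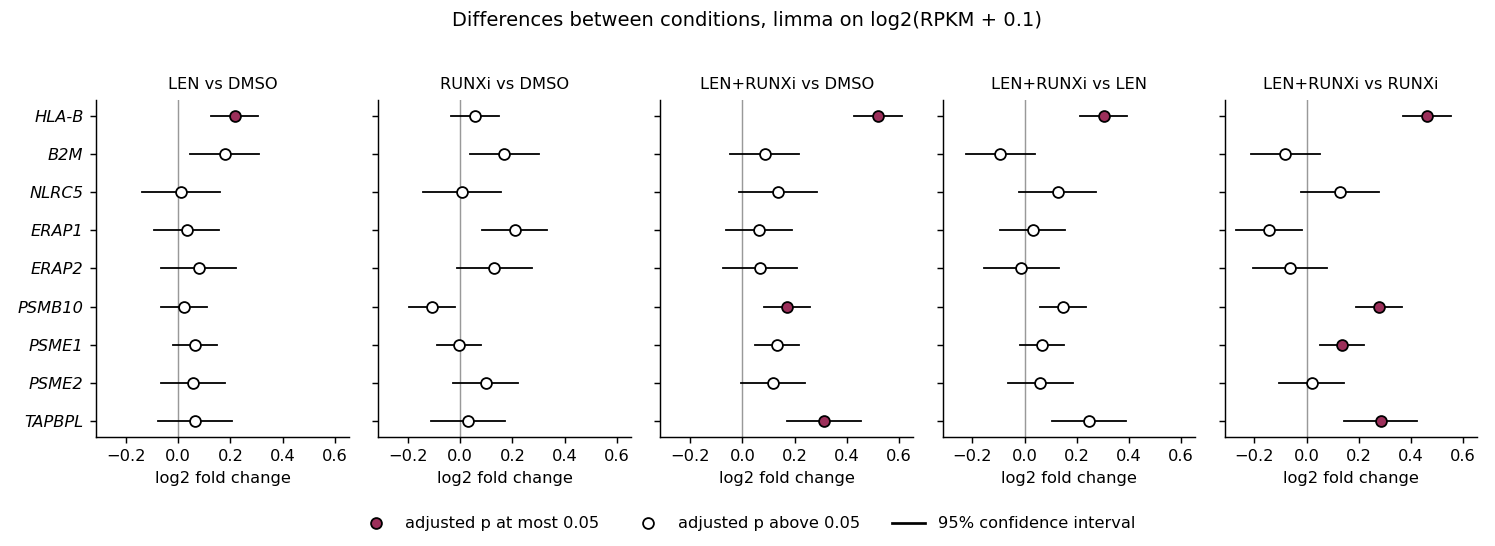
log2 fold change (horizontal axes) of the 9 genes (rows) in the 5 comparisons between conditions (panels), with 95% confidence intervals. Filled points had an adjusted p of at most 0.05. HLA-B is filled in 4 of the 5 panels, and B2M, NLRC5, ERAP1, ERAP2 and PSME2 in none.

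Counted over the 9 genes, 1 rose with LEN (HLA-B), where 0.979% of all genes tested rose. None passed with RUNXi, where 2.09% of all genes rose and 2.46% fell; 3 of the 9 had an unadjusted p under 0.05, as did 21.9% of all genes, and with voom, run by limma on the recovered reads, 1 rose (ERAP1), as did 4.08% of all genes. With LEN+RUNXi 3 rose against DMSO, where 5.64% of all genes did, and 1 was called, HLA-B, where 2.3% were called higher. Against LEN the combination was higher for 1 (2.48% of all genes), and against RUNXi for 4 (9.13%), of which HLA-B was called (3.16%). None of the 9 fell in any comparison. In 5 of the 9 the 3 LEN+RUNXi samples lay above all DMSO samples, as in 18.1% of all genes. The median log2 fold change of the 9 was 0.07 with LEN, 0.06 with RUNXi and 0.13 with LEN+RUNXi, and that of all genes tested was -0.002, 0.01 and 0.02. The 3 comparisons with DMSO share their control samples.

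The response to LEN+RUNXi was next set against the sum of the responses to LEN and RUNXi on the log2 scale, the interaction of a model with both agents. For HLA-B the sum was 0.27 and the combination 0.52, a difference of 0.25 ± 0.06. For PSMB10 the sum was -0.08 and the combination 0.17, a difference of 0.25 ± 0.06, and for TAPBPL they were 0.10 and 0.31, a difference of 0.22 ± 0.09. B2M and ERAP1 went the other way: B2M had a sum of 0.35 and a combination of 0.09 (difference -0.26 ± 0.09), and ERAP1 a sum of 0.24 and a combination of 0.06 (difference -0.18 ± 0.08). These 5 of the 9 had unadjusted p under 0.05, as did 1621 of the 11241 genes tested. No difference passed after adjustment (adjusted p of 0.28 to 0.35 for the 5 genes), and none did in any gene tested (0%). With voom 3 genes passed, none of the 9. Without RUNXi replicate 2 the differences were 0.26 for HLA-B (adjusted p = 0.047), 0.28 for PSMB10 (adjusted p = 0.025) and -0.31 for B2M (adjusted p = 0.049), beside 540 genes in all that passed. With all samples these 3 differences were 0.25, 0.25 and -0.26. Both fits share every other sample, so the same direction in both is no independent support. Whether the 3 passed after adjustment over all genes turned on that sample.

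**Figure D3:**
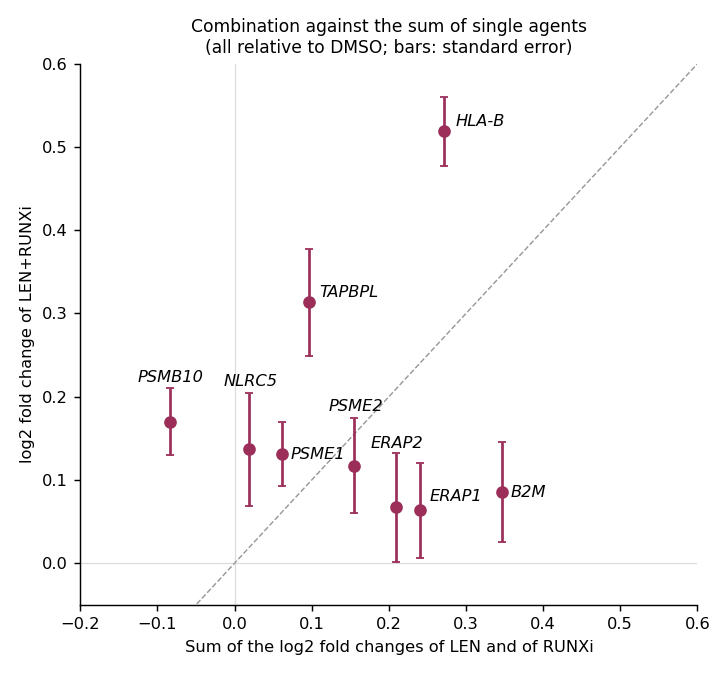
log2 fold change in LEN+RUNXi (vertical axis, bars: standard error) against the sum of the log2 fold changes in LEN and in RUNXi (horizontal axis), all relative to DMSO, for the 9 genes; the dashed line marks equality. HLA-B, TAPBPL, PSMB10, NLRC5 and PSME1 lie above the line, and B2M, ERAP1, ERAP2 and PSME2 below it.

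Over the 12 samples the 9 genes did not vary as 1 group. HLA-B, TAPBPL, PSME1, PSMB10 and NLRC5 correlated with each other with Pearson r of 0.45 to 0.90 over their 10 pairs, highest for HLA-B and TAPBPL. PSME2, ERAP2, B2M and ERAP1 correlated with each other with r of 0.49 to 0.69 over 6 pairs. Between the blocks, which were drawn after the values were seen, the 20 pairs had r of -0.58 (PSMB10 and ERAP1) to 0.51 (TAPBPL and PSME2). The points share their libraries and conditions, so these values describe the samples and carry no test. HLA-B and B2M, whose proteins form 1 complex, had r = 0.05.

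**Figure D4:**
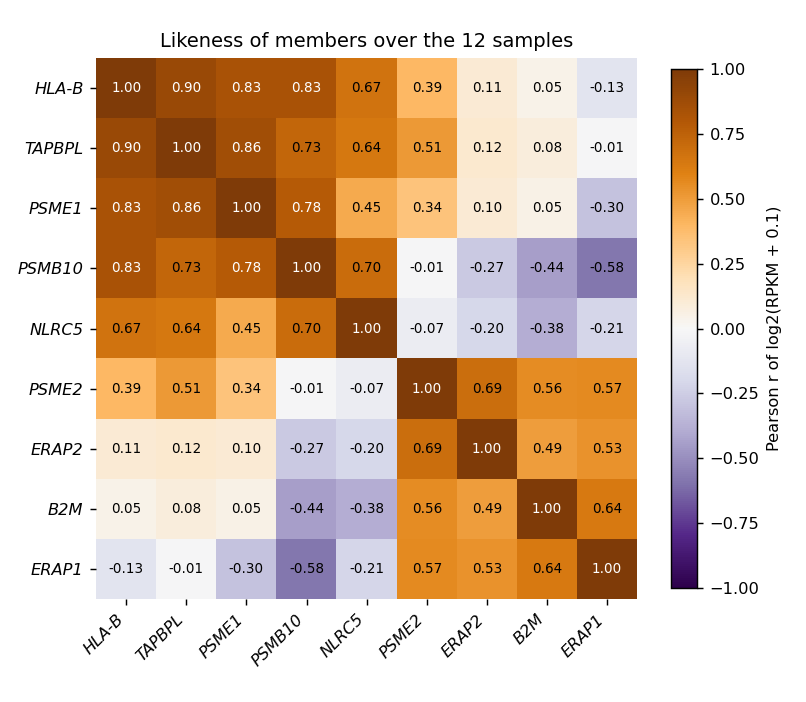
Pearson r (color, and number in each cell) between the log2 levels of each pair of the 9 genes over the 12 samples. HLA-B, TAPBPL, PSME1, PSMB10 and NLRC5 form the upper left block, with r of 0.45 to 0.90, and PSME2, ERAP2, B2M and ERAP1 the lower right block, with r of 0.49 to 0.69.

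Among all other genes tested, those most like the mean of the 9 (each scaled to unit variance) over the 12 samples were LAP3 (r = 0.95), BSDC1 (0.95), SMAD3 (0.94), SELPLG (0.93) and VAV1 (0.93). LAP3 is a cytosolic leucine aminopeptidase, SMAD3 carries TGF-β signals, SELPLG is the ligand of P-selectin and VAV1 is an exchange factor of blood cells. SMAD3 stood at 1.02 ± 0.08 RPKM in DMSO and 1.73 ± 0.20 in LEN+RUNXi, with 1.32 and 1.30 in LEN and RUNXi. VAV1 stood at 23.3 ± 0.5 RPKM in DMSO, 26.7 in each single agent and 31.2 ± 0.9 in LEN+RUNXi. Both had intermediate levels with each single agent.

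By level the 9 genes ranged from TAPBPL, with a mean of 5.38 RPKM, to PSMB10, with 108 RPKM. The order was PSMB10, PSME1 (101), PSME2 (45.4), B2M (29.6), HLA-B (15.9), NLRC5 (7.09), ERAP2 (6.45), ERAP1 (5.59) and TAPBPL. PSMB10 and PSME1 overlapped in their ranges over the 12 samples, and so did NLRC5, ERAP2, ERAP1 and TAPBPL, each with each. These levels rest on the gene lengths of the deposited table, which came to 2.18 times the GENCODE 44 exon length for HLA-B and 0.453 times for PSME2. On GENCODE lengths the order changed at both ends: PSME1 (67.1 RPKM) and PSMB10 (67.0) were level at the top, B2M (36.6) and HLA-B (34.8) were close to each other, PSME2 (20.6) lay below both, and ERAP1 (8.36), TAPBPL (7.69) and ERAP2 (5.37) lay above NLRC5 (4.43). Fold changes of a gene between samples do not depend on its length.

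The lengths matter more for the neighbours of HLA-B. Of 135 protein-coding genes of the MHC region (chr6:29722775-33314284, HLA-F to TAPBP), 90 (66.7%) were listed at 0 in every sample, against 19.5% of 18099 protein-coding genes elsewhere. The deposited length was more than 2 times the GENCODE exon length for 128 of the 135 (94.8%), with a median ratio of 4.96, and for 3.98% of the others, with a median of 0.893. HLA-E, HLA-F, HLA-G and PSMB8 were listed at 0 in all 12 samples, PSMB9 had 0 to 4 reads, TAP1 0 to 3, TAP2 33 to 70 and TAPBP 17 to 44. Most nucleated cells are known to express several of these genes, so a listing at 0 is not read as absence, and TAP1, TAP2, TAPBP, PSMB8 and PSMB9 were not compared. How reads that match several places were treated is not given in the sources used here, and its part in these listings was not tested. HLA-B rested on 2760 to 4944 reads per sample. HLA genes are also polymorphic and alike, so reads may have passed between HLA-B and HLA-C.

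Exons of other genes overlap some of the 9. The kit marked strand, but the strand setting of the counting is not given in the sources used here, so reads of HLA-B and ENSG00000271581 (671 shared exon bases), ERAP1 and CAST (299), PSME2 and RNF31 (216) and TAPBPL and VAMP1 (339) on opposite strands may not have been told apart. On the same strand PSMB10 shares 640 exon bases with ENSG00000261884 and HLA-B 1421 with DHFRP2.

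Of 41 other genes of the class I pathway, listed with earlier results of these data known, 28 were tested. With LEN 2 of them rose and none fell, where 0.979% of all genes tested rose and 17 of 11241 fell. With RUNXi 2 rose and none fell, where 2.09% and 2.46% of all genes did. With LEN+RUNXi 5 rose and 1 fell, where 5.64% and 3% of all genes did. Against LEN the combination was higher for 2 (2.48% of all genes) and lower for 3 (2.14%). Against RUNXi it was higher for 4 (9.13%) and lower for 4 (5.84%). The median log2 fold change of the 28 in LEN+RUNXi against DMSO was 0.02, as was that of all genes tested. Of these genes HLA-C and IRF1 were called in at least 1 comparison.

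HLA-C encodes another classical heavy chain. It was 6.54, 6.30 and 5.82 RPKM in DMSO, 6.94, 7.22 and 7.15 with LEN, 5.23, 6.33 and 5.70 with RUNXi, and 7.94, 7.88 and 7.58 with LEN+RUNXi. It rose with the combination by 0.32 ± 0.07 (adjusted p = 0.012) and exceeded RUNXi by 0.44 (adjusted p = 0.0031), while its difference from LEN, 0.13, did not pass (adjusted p = 0.27). Without RUNXi replicate 2 the difference between the combination and the sum of the single agents was 0.32 for HLA-C (adjusted p = 0.046), against 0.25 (adjusted p = 0.30) with it. HLA-B and HLA-C were both higher with LEN+RUNXi than with RUNXi alone. The ratio of HLA-B to HLA-C was 2.21 ± 0.04 in DMSO, 2.25 ± 0.02 in LEN, 2.49 ± 0.22 in RUNXi and 2.53 ± 0.08 in LEN+RUNXi (SD, 3 samples each, on the deposited gene lengths). The LEN+RUNXi ratios did not overlap those of DMSO (exact permutation p = 0.1, the smallest possible). The size of the ratio rests on lengths that were 2.18 times the GENCODE exon length for HLA-B and 4.42 times for HLA-C. On GENCODE lengths their means over the 12 samples were 34.8 and 29.7 RPKM.

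Among the promoter factors, IRF1, the interferon-induced factor that binds the IRF core, was 9.47, 9.05 and 9.22 RPKM in DMSO, 11.2, 11.4 and 11.2 with LEN, 10.1, 10.6 and 10.3 with RUNXi, and 13.8, 13.7 and 13.2 with LEN+RUNXi. The 4 conditions did not overlap, in the order DMSO, RUNXi, LEN and LEN+RUNXi. The log2 fold change was 0.28 with LEN (adjusted p = 0.0027), 0.16 with RUNXi (adjusted p = 0.028) and 0.55 ± 0.04 with the combination (adjusted p = 3.6e-06), and the last is close to that of HLA-B. The rise with RUNXi did not pass in 6 of 23 alternatives, with adjusted p of 0.136 with only the conditions compared, 0.0687 with thinned reads, and 0.0565 to 0.109 without DMSO replicate 2 or 3 or RUNXi replicate 1 or 3. For IRF1 the combination did not differ detectably from the sum of the single agents (difference 0.11 ± 0.05, adjusted p = 0.36).

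Of the genes that passed by adjusted p without being called, RFX5, a subunit of the RFX complex at class I and class II promoters, rose with RUNXi (0.30, adjusted p = 0.0015) and with LEN+RUNXi (0.31, adjusted p = 0.00085). With LEN it was at 0.02 (adjusted p = 0.94), so its levels separated by RUNXi, from 54.5 to 58.4 RPKM without it and from 66.1 to 72.4 with it. CANX, which encodes the chaperone calnexin, fell with LEN+RUNXi by 0.18 (adjusted p = 0.0034), and LAP3 and MR1, a class I-like gene, rose by 0.14 and 0.19 (adjusted p = 0.028 and 0.046). These 4 genes were chosen after their values were seen.

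**Figure D5:**
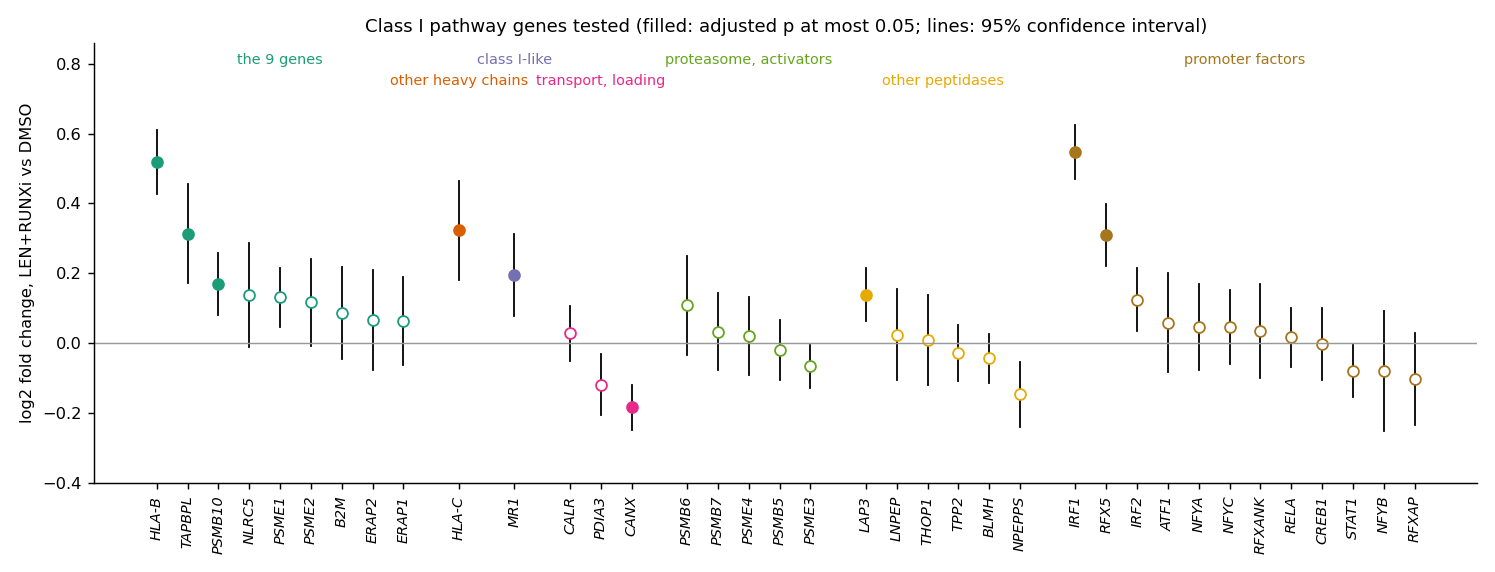
log2 fold change in LEN+RUNXi against DMSO (vertical axis) with 95% confidence intervals for the 9 genes and the 28 other class I pathway genes tested, grouped by role. Filled points had an adjusted p of at most 0.05. IRF1 and HLA-B lie highest, at 0.55 and 0.52, and CANX lowest, at -0.18.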

How the data were processed

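Poly(A) RNA of 12 OPM-1 samples was sequenced by the authors, who used STAR and GRCh38 for alignment and deposited RPKM values on featureCounts gene lengths (versions are not given in the sources used here). Samples were grouped by label. Each RPKM value times its length was a whole number of steps for 100% of values (tolerance 0.05 reads), which gave the reads.

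limma 3.58.1 (R 4.3.3) was run on log2(RPKM + 0.1) of the 11241 genes whose mean reached 0.5 RPKM, with 4 condition means, a variance trend and Benjamini-Hochberg adjustment. The fit was tried on simulated data with planted changes larger than most reported here and no effect shared by replicate number. That trial therefore does not speak to the small changes reported. Ratios within samples were compared by two-sided exact permutation tests. The 9 genes, the lists, the threshold of 0.32 and the tests were chosen with earlier results of these data known. One pathway gene of the list is not reported here. Named beside the 9 are the other pathway genes called and the 5 genes most like the mean of the 9. Coordinates are from GENCODE 44. Python 3.11.15, numpy 2.4.6, pandas 2.3.3 and matplotlib 3.10.9 were used.

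Alternatives were pseudocounts of 1 and 0.01, filters (mean of at least 1, any value above 0), median-ratio and quantile scaling, a replicate block, no variance trend, voom on reads, only the conditions compared, no fold change threshold, each sample left out and, chosen after seeing the data, thinned reads.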

Additional observations from a re-analysis of the deposited data

How the results depend on the processing

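The 9 comparisons of members that passed were recomputed 207 times over 23 alternatives. Of these values 178 stayed at an adjusted p of at most 0.05, 29 no longer passed and 0 changed direction. For the 45 comparisons of members that did not pass, 1004 of 1026 values stayed and 22 passed. Without the fold change threshold the genes called went from 73 to 127 for LEN, 199 to 512 for RUNXi, 331 to 971 for LEN+RUNXi, 189 to 519 against LEN and 408 to 1683 against RUNXi, and the members called from 0 to 1, stayed 0, 1 to 3, 0 to 1 and 1 to 4. With only the conditions compared, 113 genes were called for RUNXi and 243 against RUNXi, from less data for the spread. For the interaction, where the adjusted p alone decides, 1 gene passed without the variance trend and 3 with voom. Thinned reads gave 2 members called for LEN+RUNXi, a count given without the share of all genes in that fit.

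Leaving out 1 sample gave 35 to 69 genes called for LEN, 119 to 443 for RUNXi, 239 to 342 for LEN+RUNXi, 127 to 213 against LEN, 183 to 764 against RUNXi and 0 to 540 that passed for the interaction. The highest counts for RUNXi, against RUNXi and for the interaction were all without RUNXi replicate 2, and the cause was not tested. The members called were 1 to 2 for LEN+RUNXi and 0 to 1 against LEN, and 0 to 3 passed by adjusted p for the interaction. The members that passed by adjusted p were 0 to 1 for LEN, 0 to 3 for RUNXi, 1 to 3 against LEN and 2 to 5 against RUNXi, with 2 without RUNXi replicate 3. The share of all genes that passed in the same fits is not given here. These counts of members are therefore not read as a result about the members. The member that rose with LEN was lost (0 passed) with every gene above 0 tested, without the variance trend and with only the conditions compared. For RUNXi voom passed 1 member. Against LEN 2 members passed with a pseudocount of 1, a minimum mean of 1 RPKM, quantile normalization, voom or only the conditions compared.

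Scaling moved the split of calls: for LEN+RUNXi against LEN from 98 higher and 91 lower to 71 and 109 with median-ratio rescaling and 64 and 120 with quantile normalization, and with quantile normalization to 181 and 111 for LEN+RUNXi and 248 and 90 against RUNXi (259 and 72, and 355 and 53, in the reported fit). The median log2 fold change of all genes for LEN+RUNXi was 0.02 in the reported fit and -0.01 with both other scalings.

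With the replicate number as a block 79, 228, 368, 218 and 473 genes were called (LEN, RUNXi, LEN+RUNXi, against LEN, against RUNXi), 0 passed for the interaction, and 2 members passed against LEN, PSMB10 being added. As deviations from their condition means, same-numbered samples correlated with a mean r of 0.052 (-0.027 to 0.16 over 18 pairs). The mean r of the 36 differently numbered pairs was -0.026. Every sample correlated best with its own number (12 of 12), a hint, from the data only, of an effect shared by number. The reported fit did not treat them as pairs, and the fit with the block took up such an effect. TAPBPL had the fewest reads of the 9, 436 to 758 per sample.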
